A study of Rattus norvegicus with 18 samples.

Results

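Transcripts of the cell division cycle were followed in colonies that had each grown from 1 fetal rat calvaria cell, calvaria being the bone-forming vault of the skull. A list of 48 cell cycle and DNA replication genes was used, and a gene was taken wherever its symbol was the only one annotated to a probe set on chip A (RAE230A) or chip B (RAE230B). Of the 48 genes, 47 were present, with 71 of the 31142 probe sets, and Tpx2 was the 1 without a probe set. By role, 13 of the 47 act in DNA replication and nucleotide supply, 7 are cyclins, kinases and cofactors of the G1/S transition, 23 act from late S phase through mitosis, and 4 are inhibitors.

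The 9 colonies were of 3 types, each with 3 colonies numbered I to III. Per the labels the types expressed osteocalcin and adipsin ("both"), osteocalcin alone ("osteocalcin") or neither marker ("neither"), as judged by the submitters from osteoblast and adipocyte gene expression. Mature osteoblasts deposit osteocalcin in bone matrix, and fat cells release adipsin, a serine protease. All colonies shared 1 culture history: single cells placed by a flow sorter, then 4 weeks of culture (37 C, 5% CO2) in a-MEM with serum from fetal calves, ascorbic acid, BGP and Dex. RNA came from 100 to 300 cells of a colony and was amplified, and each colony gave 1 chip A and 1 chip B array. No strain or genotype is given in the sources used here. Each colony descends from its own cell, so the spread reported is that between colonies, amplification included.

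Some arrays stood apart before any member was read. The deposited chip A array of osteocalcin I had a trimmed mean of 64.4, against about 1500 on the others, so all arrays were rescaled to 1500. Neither III correlated least with the other colonies on both chips (mean r 0.664 on chip A and 0.326 on chip B). The chips have 100 probe sets in common, and over these the chip A array was closest to the same colony on chip B for 8 of 9 colonies, the exception being osteocalcin III, which was closest to both III. Bglap, which encodes osteocalcin, had signals of 20.9 to 44.9 in both colonies, 27.1 to 55.9 in osteocalcin colonies and 43.5 to 299 in neither colonies, so its probe set did not separate the types as labelled. Cfd (adipsin) had 251 to 522 in both colonies, 136 to 246 in osteocalcin colonies and 113 to 308 in neither colonies.

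The cell cycle is driven by cyclins bound to cyclin-dependent kinases. D-type cyclins with Cdk4 and cyclin E with Cdk2 carry a cell from G1 into S phase, where the Mcm helicase and the polymerases copy the DNA, and cyclin A and cyclin B with Cdk1 carry it through mitosis. Replication genes are classically switched on through E2F sites in their promoters, and many mitotic genes through the CHR element, often beside CCAAT boxes. In bone cultures, precursors divide before they differentiate, and inhibitors such as p21 and p27 hold differentiated cells out of the cycle.

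Promoter windows of 250 bases before to 50 bases after the start of the gene were taken from RefSeq (build GRCr8), which held 39 of the 48 genes. The windows of 5 genes are shown because the differences between types described further on turn on them: Prc1 (chr1:143659231-143659530, plus strand), Nusap1 (chr3:127057045-127057344, plus strand), Gmnn (chr17:40729584-40729883, plus strand), Mcm6 (chr13:42404303-42404602, minus strand) and Pold4 (chr1:210955944-210956243, plus strand). Each window is 300 bases long and is written 5′ to 3′ on the strand of its gene, with capitals for any match on either strand to an E2F site (TTTCCCGC, TTTCGCGC, TTTGCCGC or TTTGGCGC), a CHR element (TTTGAA or TTCGAA) or a CCAAT box.
Prc1: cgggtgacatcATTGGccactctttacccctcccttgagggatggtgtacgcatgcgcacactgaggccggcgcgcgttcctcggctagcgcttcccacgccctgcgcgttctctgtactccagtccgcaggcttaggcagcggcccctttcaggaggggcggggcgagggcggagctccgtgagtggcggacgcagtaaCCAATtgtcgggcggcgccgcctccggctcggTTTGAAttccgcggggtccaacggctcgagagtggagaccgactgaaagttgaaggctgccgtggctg
Nusap1: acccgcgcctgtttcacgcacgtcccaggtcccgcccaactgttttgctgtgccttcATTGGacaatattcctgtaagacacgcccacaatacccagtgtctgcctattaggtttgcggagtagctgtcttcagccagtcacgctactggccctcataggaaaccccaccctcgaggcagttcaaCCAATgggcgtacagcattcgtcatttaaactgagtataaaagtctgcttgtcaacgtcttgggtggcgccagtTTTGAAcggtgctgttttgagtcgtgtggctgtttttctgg
Gmnn: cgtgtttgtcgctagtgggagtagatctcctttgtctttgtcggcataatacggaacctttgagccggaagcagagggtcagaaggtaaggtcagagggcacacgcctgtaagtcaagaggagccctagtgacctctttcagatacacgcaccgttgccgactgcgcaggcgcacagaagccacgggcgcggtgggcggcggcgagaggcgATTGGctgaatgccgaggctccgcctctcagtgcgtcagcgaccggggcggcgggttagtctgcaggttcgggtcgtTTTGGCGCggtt
Mcm6: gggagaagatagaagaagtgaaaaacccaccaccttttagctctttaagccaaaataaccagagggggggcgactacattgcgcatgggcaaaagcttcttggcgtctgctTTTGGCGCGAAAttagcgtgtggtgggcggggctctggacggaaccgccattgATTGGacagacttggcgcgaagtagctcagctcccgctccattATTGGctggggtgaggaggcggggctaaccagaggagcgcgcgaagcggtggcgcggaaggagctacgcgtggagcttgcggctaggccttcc
Pold4: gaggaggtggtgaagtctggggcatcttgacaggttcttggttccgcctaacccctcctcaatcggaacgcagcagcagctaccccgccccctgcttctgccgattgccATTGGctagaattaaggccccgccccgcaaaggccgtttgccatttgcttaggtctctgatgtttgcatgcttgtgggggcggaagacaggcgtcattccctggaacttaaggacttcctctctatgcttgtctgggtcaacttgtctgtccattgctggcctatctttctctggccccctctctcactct
In these windows the Prc1 and Nusap1 promoters each hold 1 CHR element and 2 CCAAT boxes, the Gmnn promoter holds 1 E2F site and 1 CCAAT box, and the Mcm6 promoter holds 2 overlapping E2F matches and 2 CCAAT boxes. The Pold4 window holds 1 CCAAT box and no match to the other letters.

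Promoters with an E2F site or a CHR element were unevenly spread over the roles, and those with a CCAAT box less so. An E2F site was found in 5 of 11 replication promoters (45.5%), 2 of 19 mitosis promoters (10.5%) and 2.14% of all 33469 rat promoter windows. A CHR element was found in 14 of 19 mitosis promoters (73.7%), 2 of 11 replication promoters (18.2%) and 19.7% of all windows. CCAAT boxes were found in 15 of 19 mitosis promoters (78.9%), 7 of 11 replication promoters (63.6%), 3 of 5 G1/S promoters (60%), 3 of 4 inhibitor promoters (75%) and 37.5% of all windows. No G1/S promoter held an E2F site, and 1 of 5 held a CHR element, while 1 of 4 inhibitor promoters held each. These shares were not tested against each other. A match is a description of the letters and not a measured binding site.

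**Figure D1:**
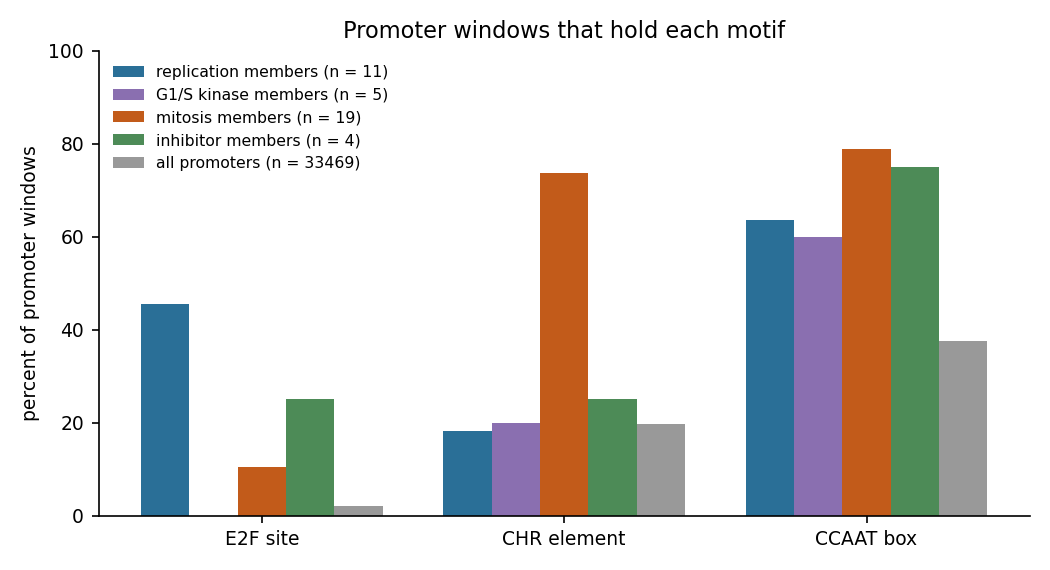
Percent of promoter windows (vertical axis) that hold at least 1 match to an E2F site, a CHR element or a CCAAT box, for the members of each role and for all rat promoter windows. E2F sites were most frequent among replication members (45.5%) and CHR elements among mitosis members (73.7%), against 2.14% and 19.7% of all windows.

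Members ranged from weak to strong hybridization signals. A signal above the median of its array on at least 3 of 9 arrays, the filter used for testing, was reached by 36 of 47 genes: 11 of 13 replication, 7 of 7 G1/S, 14 of 23 mitosis and 4 of 4 inhibitor genes. All 9 arrays were above their median for 10 genes: Pcna, Mcm5, Pold4, Cdk4, Ccnd1, Ccnd2, Ccnd3, Cks1b, Cdc26 and Cdkn1a. No array was above its median for 7 genes, among them Mki67, the gene of the proliferation antigen Ki-67, and the mitotic kinases Aurka and Aurkb. Rrm2, Ccna2, Bub1b and Cdc25b made up the rest. Over all 13810 genes with 1 symbol, 29.7% were above the array median on all 9 arrays and 15.1% on none. Signals of different probe sets cannot be set against each other. RNA from 100 to 300 cells of a colony together does not tell fewer dividing cells from less RNA per cell.

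The highest levels gathered in 1 colony rather than in 1 type. Colony both II had the highest level of 23 of the 47 genes (48.9%), although it had the highest level of only 9.90% of all genes. It held the highest level of 14 of 23 mitosis genes and 6 of 13 replication genes. Cdk1, the kinase that drives entry into mitosis, had signals of 1205, 3253 and 630 in both I, II and III, 175, 1063 and 1387 in the osteocalcin colonies and 504, 1335 and 2493 in the neither colonies. Top2a, the topoisomerase that untangles sister chromatids, had 343, 1749 and 407 in both colonies, 203, 99.5 and 674 in osteocalcin colonies and 185, 276 and 613 in neither colonies. By the probe sets used, each gene peaked in both II, and the ranges of the 3 types overlapped. A second Top2a probe set peaked in osteocalcin III. It had 519, 604 and 640 in both colonies, 250, 750 and 767 in osteocalcin colonies and 182, 623 and 185 in neither colonies. Each Top2a probe set exceeded the array median on only 1 array and was not tested.

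Other genes shared that peak. Stmn1, a microtubule destabilizer active at the spindle, had 1056, 3047 and 562 in both colonies, 174, 818 and 767 in osteocalcin colonies and 193, 1913 and 2358 in neither colonies. Ube2c, the ubiquitin-conjugating enzyme of the anaphase-promoting complex, had 1023, 2952 and 1399 in both colonies, 426, 1476 and 590 in osteocalcin colonies and 899, 1055 and 212 in neither colonies. Pttg1, the securin that guards sister chromatids, had 256, 1751 and 375 in both colonies, 279, 1279 and 362 in osteocalcin colonies and 519, 874 and 685 in neither colonies. In each of these, both II stood above the other 8 colonies while both I or both III lay among them.

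The peak was not of every member. Osteocalcin II held the highest level of 10 members (21.3%), against 9.81% of all genes, among them Birc5 (survivin), with 375, 486 and 553 in both colonies, 289, 1655 and 345 in osteocalcin colonies and 768, 1163 and 168 in neither colonies. The lowest levels lay most often in osteocalcin I, which had the lowest value of 11 of 47 members and 8 of 23 mitosis members, against 10.9% of all genes. Its chip A array was the only one of that chip hybridized on another day and deposited on another scale. On chip A this colony and its array cannot be told apart. Relative to the mean of 9 colonies, the median mitosis gene stood at 0.77 log2 units in both II and at -0.62 in osteocalcin I, against medians over all genes of -0.07 and -0.04 in the same colonies. Here and below, log2 values are of the signal plus a pseudocount, which understates differences of weak genes.

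**Figure D2:**
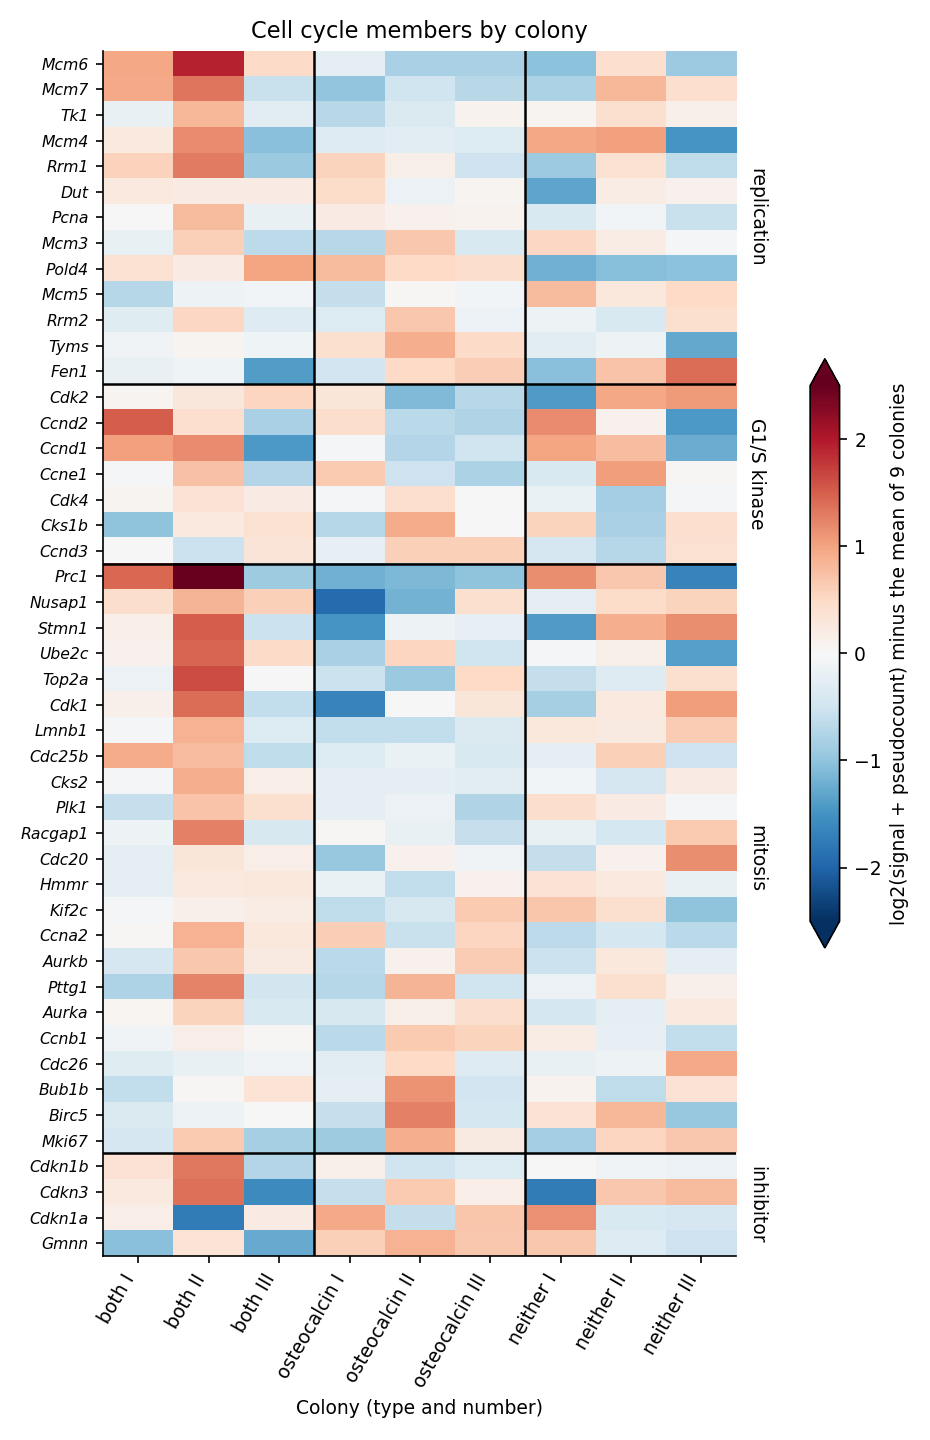
Level of each member (rows, by role, ordered within a role by the both minus osteocalcin difference) in each colony (columns, by type), as log2(signal + pseudocount) minus the mean of the 9 colonies. The both II column is the darkest red, with the highest level of 23 of the 47 genes, and its Prc1 cell lies beyond the colour scale.

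Levels of some other marker genes moved with the same colony. The p21 gene Cdkn1a, an inhibitor of cyclin-dependent kinases, had its lowest signal in both II, with 18231, 4681 and 18763 in both colonies, 31522, 10672 and 26116 in osteocalcin colonies and 35835, 12383 and 12044 in neither colonies. Its second probe set was also low there, at 4703, though neither II was lower at 3586. Summed over the 4 smooth muscle markers, of which 3 were above the array median in all both colonies and 4 in all colonies of the other types, the signal in both colonies was 59848, 9969 and 142003, in osteocalcin colonies 59878 to 236474 and in neither colonies 20958 to 111837. The sum over 6 osteoblast markers ran from 91825 to 175727 in both colonies, from 93231 to 337894 in osteocalcin colonies and from 224876 to 263069 in neither colonies, and that over 6 adipocyte markers from 1907 to 5171, 2592 to 3933 and 2623 to 3210 in the same types. Both II held the lowest of the 9 sums on all 3 lists, but not every gene followed. Its Spp1 (24878) and Adipoq (273) were the lowest of the 9 colonies. Its Col1a1, at 65852, was above all osteocalcin colonies (23909 to 57440), and its Cfd, at 413, was above all osteocalcin and neither colonies. At most 3 of 6 osteoblast and 1 of 6 adipocyte markers were above the array median in all colonies of a type. Runx2 and Sp7 of the osteoblast list had no probe set with a single symbol, and no marker was at 0. Macrophage markers (6 genes) summed to 2430 to 5792 in both colonies, 3589 to 6681 in osteocalcin colonies and 2673 to 5620 in neither colonies, with both II at 2604. The endothelial sum (3 genes) was 2148 to 2931 in both colonies, 1978 to 3375 in osteocalcin colonies and 1455 to 2376 in neither colonies. The part of these cell types in the member levels was not tested.

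Members did not move as 1 block over the colonies. The median Pearson correlation over the 190 pairs of the 20 mitosis genes on chip A was 0.28 over 9 colonies and 0.13 without both II. For the 66 pairs of 12 replication genes it was 0.26 and 0.16. These pairs share arrays and amplification, and the values are a description.

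**Figure D3:**
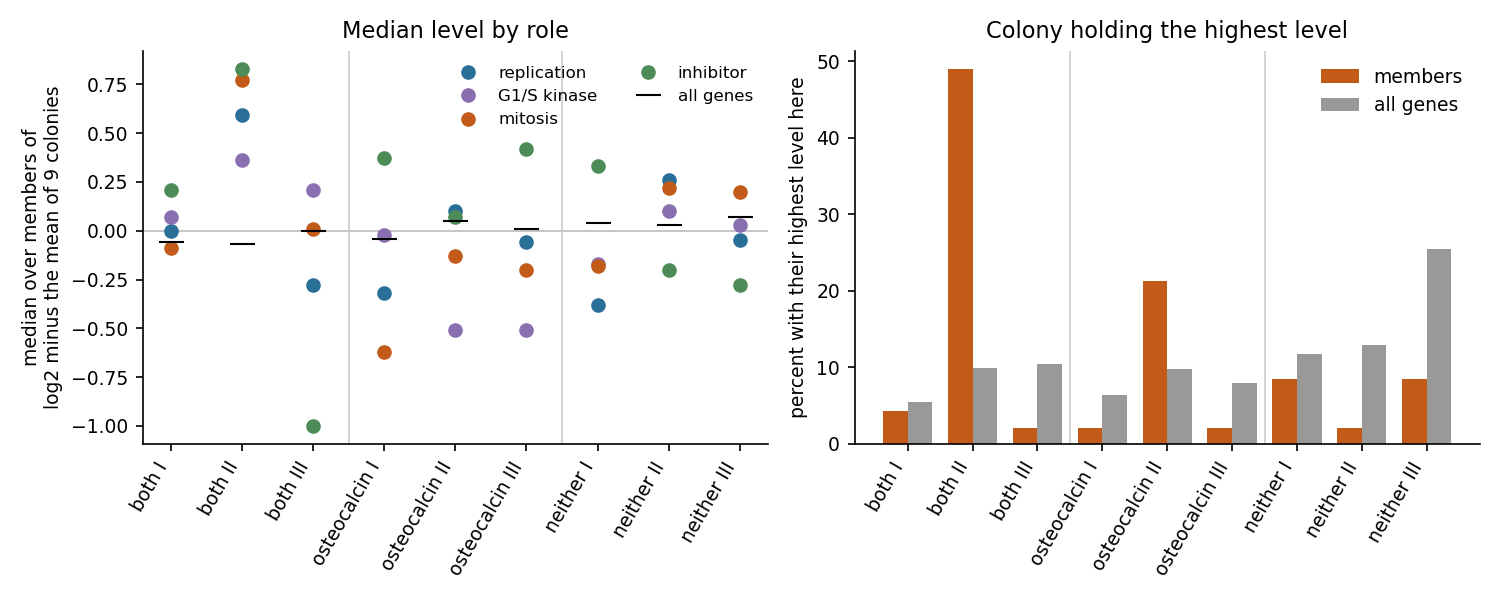
Left, median over the members of each role of the log2 level relative to the mean of 9 colonies, by colony, with a dash for all genes. Right, percent of the 47 members and of all genes whose highest level lay in each colony: 48.9% of members peaked in both II, against 9.90% of all genes.

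The types were then compared, asking which division genes go with the marker types. In limma, with Benjamini-Hochberg adjustment over all 19312 probe sets tested, no probe set passed an adjusted p of 0.05 in both against osteocalcin (0% of those tested), in osteocalcin against neither (0%) or in both against neither (0%), and so none of the 48 member probe sets tested did. At an unadjusted p under 0.05 there were 654, 1448 and 1883 probe sets in the 3 comparisons, of which 5, 5 and 2 were member probe sets. The median standard error of a difference was 0.497 log2 units, so that a difference of 1 unit was about 2 standard errors. The 3 comparisons share colonies and are not independent of each other.

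In both against osteocalcin, 32 of the 47 members had a higher mean and 15 a lower mean in both colonies, with a median difference of 0.20 log2 units, against -0.03 over all genes. The mitosis genes stood at a median of 0.38 (18 higher, 5 lower), the G1/S genes at 0.20 (5 and 2), the replication genes at 0.07 (8 and 5) and the inhibitors at -0.43 (1 and 3). With the station as a block these medians were 0.35, 0.56, 0.26 and -0.20 in the same order. On chip A the block rests on the both arrays, of which both III alone ran on fluidics station 2. Its values there compare both I and II with osteocalcin, and both III alone with neither. Without colony both II the median over members was -0.02, that over replication genes -0.18, that over mitosis genes 0.23 and that over G1/S genes 0.01. Every both colony lay above every osteocalcin colony for 5 members (Prc1, Nusap1, Mcm6, Lmnb1 and Cks2), or 10.6%, where 4.08% of all genes did so. Every both colony lay below for 2 (Gmnn and Tyms), or 4.26%, near the 5.45% of all genes that did so.

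**Figure D4:**
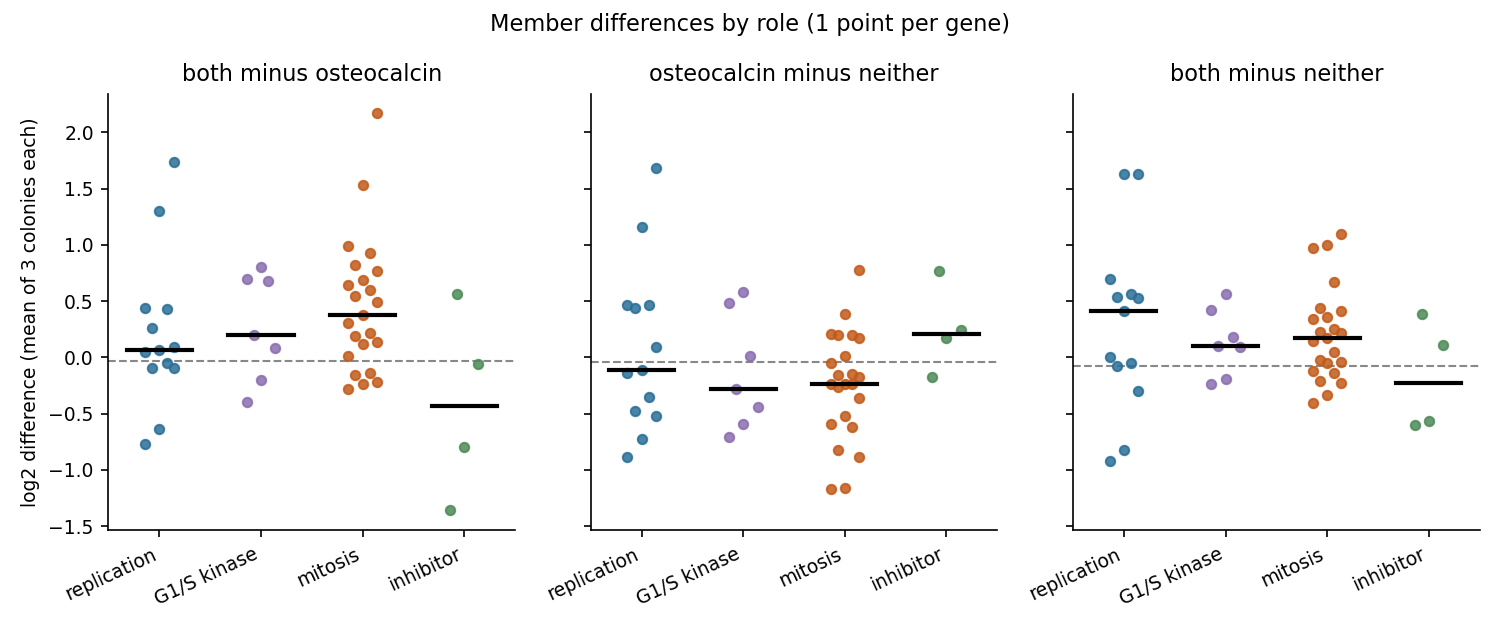
Log2 difference of each member between the means of 3 colonies per type, by role, for the 3 comparisons; black bars are medians over the members of a role and the dashed line the median over all genes. Mitosis members centred at 0.38 in both minus osteocalcin and at -0.24 in osteocalcin minus neither.

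Prc1 and Nusap1 were the mitosis genes with the largest mean differences in both against osteocalcin, although the colonies nearest to the other type lay close. Prc1, which bundles the microtubules of the central spindle, had signals of 3982, 9558 and 526 in both I, II and III, 363, 401 and 455 in osteocalcin colonies and 3239, 2211 and 169 in neither colonies. The osteocalcin colonies were uniformly low, while both III and neither III were close to them. The log2 difference between both and osteocalcin was 2.17 (SE 0.796, limma adjusted p = 1), and 1.38 without both II. Nusap1, which stabilizes spindle microtubules around chromosomes, had 3146, 4327 and 3554 in both colonies, 346, 798 and 3075 in osteocalcin colonies and 1874, 3204 and 3446 in neither colonies. Its both colonies were alike and lay above all osteocalcin colonies, of which osteocalcin III came close. The difference was 1.53 (SE 0.525, limma adjusted p = 1) for this probe set, and the other Nusap1 probe set, with 389, 1811 and 1063 in both colonies and 1914, 558 and 627 in osteocalcin colonies, showed overlap.

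Gmnn encodes geminin, which blocks a second round of origin licensing by binding Cdt1. It had 225, 1125 and 148 in both colonies, 1412, 1768 and 1501 in osteocalcin colonies and 1492, 592 and 472 in neither colonies. All 3 both colonies lay below all osteocalcin colonies, the reverse of Prc1 and Nusap1, and the difference was -1.36 (SE 0.586, limma adjusted p = 1). A second Gmnn probe set, with 428, 339 and 552 in both colonies and 436, 371 and 439 in osteocalcin colonies, did not separate them. These 3 genes are read on chip B, where the both arrays ran on fluidics station 1 and the osteocalcin arrays on station 2 in a hybridization run of their own, so type, station and run cannot be told apart there. With the station as a block, the differences were 0.51 for Prc1, 2.25 for Nusap1 and -2.44 for Gmnn. On chip B this block rests on the neither arrays, of which neither I alone ran on station 1.

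The other members without overlap are read on chip A. Mcm6, a subunit of the replicative helicase, had 927, 2021 and 598 in both colonies, 269, 104 and 105 in osteocalcin colonies and 52.9, 567 and 78 in neither colonies. Every both colony was above every colony of the other types, a difference of 1.74 log2 units from osteocalcin and 1.63 from neither, but the probe set exceeded the array median on only 2 arrays and was not tested. Mcm7, of the same helicase, had 1383, 1874 and 328 in both colonies, 184, 354 and 279 in osteocalcin colonies and 250, 1262 and 893 in neither colonies, so both III overlapped (difference from osteocalcin 1.30, SE 0.579, limma adjusted p = 1). Lmnb1 (lamin B1, of the nuclear lamina) had 1080, 2250 and 839 in both colonies, 649, 655 and 832 in osteocalcin colonies and 1387, 1344 and 1883 in neither colonies. Cks2, a kinase cofactor, had 1055, 2252 and 1244 in both colonies, 891, 877 and 858 in osteocalcin colonies and 1032, 748 and 1289 in neither colonies. For each gene, by the probe set used, the osteocalcin colonies lay close together and below all both colonies, for Lmnb1 only just (832 against 839). The differences were 0.69 (SE 0.374) and 0.60 (SE 0.358) log2 units (limma adjusted p = 1 each), and 0.33 and 0.31 without both II. The 2 other Lmnb1 probe sets, which were not tested, overlapped and differed by -0.47 and 0.50.

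Tyms, the thymidylate synthase that makes the thymidine nucleotide, went the other way, with 570, 672 and 567 in both colonies, 905, 1387 and 968 in osteocalcin colonies and 468, 554 and 117 in neither colonies. The osteocalcin colonies were above all others, and the difference of both from osteocalcin was -0.64 (SE 0.441, limma adjusted p = 1). On the deposited signals, where osteocalcin I was not rescaled, it was 0.04. Within fluidics station 1 of chip A, which held both I, both II and the 3 osteocalcin colonies, 30 of 41 members were higher and 11 lower in both colonies, with a median of 0.35. These are the same differences that the station block gave for chip A.

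In osteocalcin against neither, 19 members had a higher mean and 28 a lower mean in osteocalcin colonies (median -0.16, against -0.04 over all genes). The mitosis genes had a median of -0.24 (7 higher, 16 lower), the G1/S genes -0.28 (3 and 4), the replication genes -0.11 (6 and 7) and the inhibitors 0.20 (3 and 1). With the station as a block the median over members was -0.47, and those of the roles were -0.43, -1.51, -1.06 and -0.31 in the same order, so that the inhibitors changed sign. Without neither I the G1/S median was 0.26. Complete separation was seen for 4 members higher in osteocalcin colonies (Pold4, Tyms, Pcna and Cdk4), or 8.51%, where 5.75% of all genes did so. It was seen for 3 lower (Mcm5, Lmnb1 and Plk1), or 6.38%, where 7.03% of all genes did so. These member shares were near those over all genes. On chip A all osteocalcin arrays ran on station 1 and all neither arrays on station 2. Type and station cannot be told apart for these genes except through the both arrays, of which both III alone ran on station 2. Block values there carry the difference of both III from both I and II.

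Pold4, the small accessory subunit of DNA polymerase delta, gave the smallest p of the set. Its signals were 5217, 4526 and 7983 in both colonies, 6921, 5675 and 5401 in osteocalcin colonies and 1564, 1734 and 1799 in neither colonies. All 6 colonies with osteocalcin by label were far above the 3 without, by 3.21-fold for osteocalcin (log2 difference 1.68, SE 0.319, limma adjusted p = 0.341) and 3.09-fold for both (1.63, SE 0.319, limma adjusted p = 0.175) on the scale with the pseudocount. Leaving out any 1 colony gave 1.58 to 1.75 and 1.40 to 1.79. Both III, run on station 2 with the neither arrays, had the highest signal of the 9, and its difference from the neither colonies within that station was 2.09. That value rests on 1 both array, and neither II and neither III were in another hybridization run than both III. On the deposited signals the osteocalcin difference was 0.43.

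Of the other replication genes that separated osteocalcin from neither, Tyms and Pcna lay on the same side as Pold4 and Mcm5 on the opposite one. Mcm5, another helicase subunit, had 774, 1261 and 1319 in both colonies, 843, 1442 and 1337 in osteocalcin colonies and 2592, 1729 and 2092 in neither colonies. It was higher in every neither colony than in any other, with differences of -0.73 log2 units for osteocalcin (SE 0.340, limma adjusted p = 0.669) and -0.82 for both (SE 0.340, limma adjusted p = 0.485), and of -0.39 and -0.59 with the station as a block. Pcna, the sliding clamp of the polymerases, had 5317, 9376 and 4672 in both colonies, 6199, 5739 and 5674 in osteocalcin colonies and 4045, 5099 and 3529 in neither colonies. Its osteocalcin colonies lay narrowly above the neither colonies, at 0.47 (SE 0.340, limma adjusted p = 0.758), and at -0.11 with the station as a block. For Tyms, by the signals given above, all osteocalcin and all both colonies were above all neither colonies, and the osteocalcin difference was 1.16 (SE 0.441, limma adjusted p = 0.621).

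Among G1/S and mitosis genes, Cdk4, Lmnb1 and Plk1 separated osteocalcin from neither. Cdk4, the kinase of the D-type cyclins, had 3804, 4709 and 4212 in both colonies, 3565, 4895 and 3625 in osteocalcin colonies and 3179, 1906 and 3557 in neither colonies, and its highest neither colony almost reached the lowest osteocalcin colony (difference 0.48, SE 0.329, limma adjusted p = 0.742). Lmnb1 was lower in osteocalcin colonies by the signals given above (difference -0.89, SE 0.374, limma adjusted p = 0.621, and -1.64 with the station as a block). Its other probe sets, which were not tested, differed by 0.12 with overlap and by -1.12 without overlap. Plk1, a kinase of mitotic entry and spindle assembly, had 368, 1256 and 961 in both colonies, 541, 583 and 303 in osteocalcin colonies and 1006, 824 and 647 in neither colonies. Its difference was -0.59 (SE 0.446, limma adjusted p = 0.764), or -0.25 with the station as a block, and the both colonies spanned nearly the whole range. Nusap1 differed by -1.16 (SE 0.525, limma adjusted p = 0.633) and Prc1 by -1.17 (SE 0.796, limma adjusted p = 0.736). Gmnn differed by 0.77 (SE 0.586, limma adjusted p = 0.762), and these genes overlapped by the probe sets used. The other Nusap1 probe set went the opposite way (0.66, SE 0.592, limma adjusted p = 0.797). It had 434, 502 and 419 in neither colonies, below all osteocalcin colonies. The second Gmnn probe set, which was not tested, also went the opposite way (-0.58).

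In both against neither, 28 members had a higher and 19 a lower mean in both colonies, with a median of 0.15 against -0.08 over all genes, and -0.07 without both II. Replication genes had a median of 0.41 (7 higher, 6 lower), mitosis genes 0.17 (14 and 9), G1/S genes 0.10 (5 and 2) and inhibitors -0.23 (2 and 2). The medians over members, replication and mitosis genes changed sign with the station as a block. They were then -0.07, -0.47 and -0.07, and those over G1/S and inhibitor genes 0.32 and -0.99. Within station 2 of chip A, where both III was the 1 both colony beside the 3 neither colonies, 18 of 41 members were higher and 23 lower in both III, with a median of -0.24. These are the same differences that the block gave for chip A. Neither II and neither III were in another hybridization run there than both III. Within station 1 of chip B, where neither I was the 1 neither colony beside the 3 both colonies, 4 of 6 members were higher and 2 lower in both colonies, with a median of 0.47. All both colonies were above all neither colonies for 6 members (Pold4, Mcm6, Dut, Tyms, Cdk4 and Ccna2), or 12.8%, where 5.42% of all genes did so. They were below for 1 (Mcm5), or 2.13%, where 9.94% of all genes did so.

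Dut, the dUTPase that keeps uracil out of DNA, had 1690, 1641 and 1650 in both colonies, 2007, 1238 and 1473 in osteocalcin colonies and 413, 1627 and 1532 in neither colonies. By this probe set the both colonies were nearly identical and only just above neither II. The difference of 0.56 (SE 0.412, limma adjusted p = 0.651) was 0.06 without neither I. A second Dut probe set, on chip B, had 760, 263 and 2339 in both colonies and 1054, 477 and 282 in neither colonies. It overlapped (difference 0.44, SE 0.696). Ccna2 (cyclin A2, of S phase and early mitosis) had 266, 751 and 378 in both colonies, 577, 66.9 and 525 in osteocalcin colonies and 44.9, 103 and 37.5 in neither colonies. Although the neither colonies were all low, no array exceeded its median and the gene was not tested (difference 0.97). Tyms differed by 0.53 (SE 0.441, limma adjusted p = 0.693) and Cdk4 by 0.56 (SE 0.329, limma adjusted p = 0.58). The markers of division showed overlap: Prc1 differed by 1.00 (SE 0.796, limma adjusted p = 0.671, and -0.10 with the station as a block), Nusap1 by 0.36 (SE 0.525, limma adjusted p = 0.823) and Gmnn by -0.60 (SE 0.586, limma adjusted p = 0.733).

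**Figure D5:**
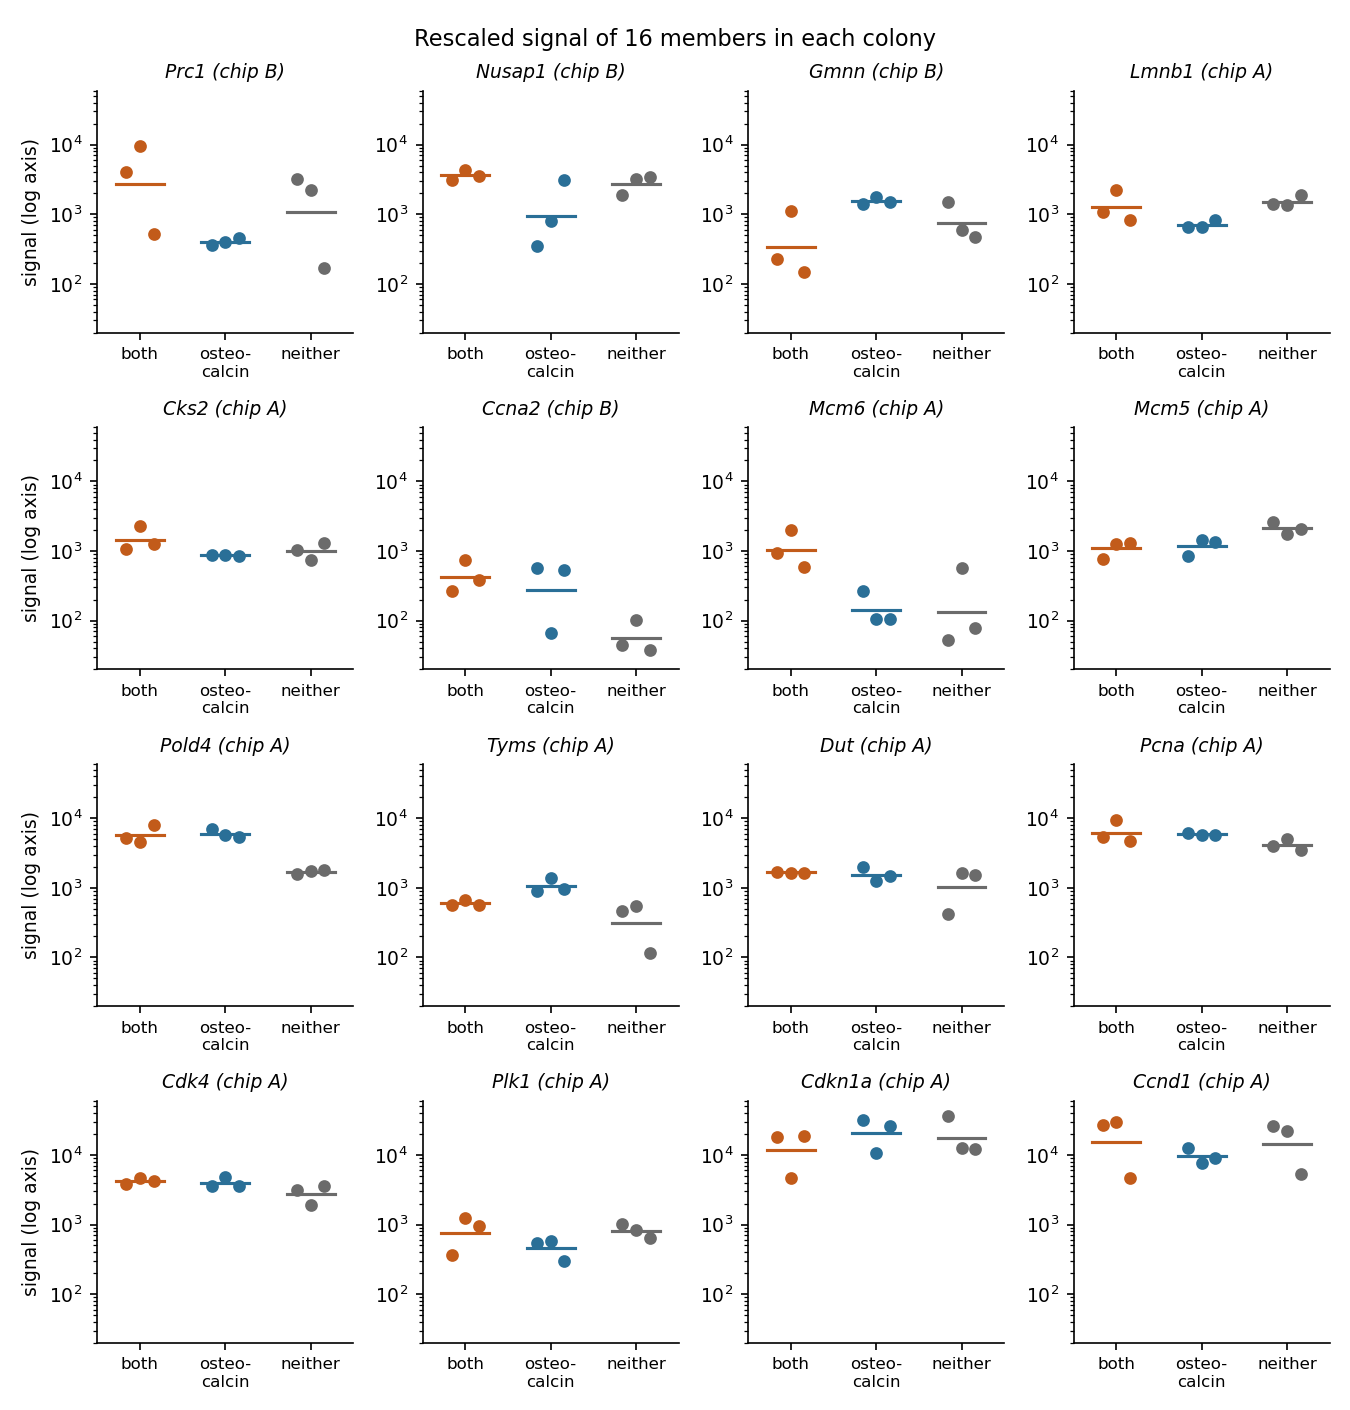
Rescaled signal (log axis) of 16 members in the 3 colonies of each type, with a bar at the geometric mean. Pold4 lies between 4526 and 7983 in both colonies, between 5401 and 6921 in osteocalcin colonies and between 1564 and 1799 in neither colonies, whereas the types overlap for Cdkn1a and Ccnd1.

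The D-type cyclins varied widely among colonies, with overlap of the 3 types. Ccnd1 (cyclin D1) had 26560, 29440 and 4639 in both colonies, 12581, 7740 and 9033 in osteocalcin colonies and 25771, 22150 and 5330 in neither colonies. Within both and within neither, colonies I and II were several times colony III, and the type differences were 0.68, -0.59 and 0.09 log2 units (SE 0.693 each) in both against osteocalcin, osteocalcin against neither and both against neither. With the station as a block they were 1.52, -3.12 and -1.60, so the last changed sign. The last rests on both III alone, and -3.12 carries its difference from both I and II. Among arrays run on station 1, colonies I and II of both lay above all osteocalcin colonies. On station 2 both III lay below all neither colonies by the probe set used. By the 2 other Ccnd1 probe sets both III, at 2192 and 2916, lay above neither III, at 1769 and 1595. In these, neither II, at 2598 and 2340, was nearer to neither III than to neither I, at 14709 and 7659. Ccnd2 had 13746, 6329 and 2571 in both colonies, 6411, 2841 and 2703 in osteocalcin colonies and 10961, 5027 and 1585 in neither colonies, with its lowest value in colony III of each type. Ccnd3 had 4044, 2741 and 5222 in both colonies, 3504, 6265 and 6306 in osteocalcin colonies and 2976, 2414 and 5385 in neither colonies, with colony III the highest of each type. The colony numbers are names and carry no order.

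The probe sets used for the remaining inhibitors overlapped. Cdkn1b (p27) had 1364, 2883 and 511 in both colonies, 1131, 639 and 742 in osteocalcin colonies and 1015, 937 and 893 in neither colonies. A second Cdkn1b probe set had 522, 486 and 534 in both colonies, 467, 183 and 99.1 in osteocalcin colonies and 518, 257 and 1092 in neither colonies, so that every both colony lay above every osteocalcin colony (difference 0.69); it was above the array median on 1 array and was not tested. Cdkn3, a phosphatase that acts on Cdk1 and Cdk2, had 923, 2304 and 85.2 in both colonies, 413, 1299 and 853 in osteocalcin colonies and 51.1, 1323 and 1457 in neither colonies. For these 2 genes, by the probe sets used, the highest colony was both II, opposite to Cdkn1a. The Cdkn1a differences were -0.80, 0.24 and -0.57 (SE 0.610 each) in the 3 comparisons, and -1.13, 1.23 and 0.10 with the station as a block. Mki67, with 159, 598 and 59.6 in both colonies, 50.2, 756 and 382 in osteocalcin colonies and 57.9, 540 and 613 in neither colonies, ranged more within each type than between types. Cdk1, by the signals given above, differed by 0.77, -0.62 and 0.15 (SE 0.639 each) in the 3 comparisons.

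By the probe sets used, the members not yet given had overlap in every comparison. Among the replication genes Mcm3, Mcm4, Tk1, Rrm1 and Rrm2 had both minus osteocalcin differences of 0.05, 0.43, 0.44, 0.26 and -0.09, and Fen1, the flap endonuclease that trims lagging-strand fragments, had -0.77. Of the G1/S genes, Ccne1 (cyclin E1), Cks1b and Cdk2 had 0.20, -0.20 and 0.80. Of the mitosis genes, Cdc20, which activates the anaphase-promoting complex, Ccnb1 (cyclin B1), Hmmr, Kif2c, Racgap1 and Cdc25b had 0.38, -0.14, 0.31, 0.22, 0.49 and 0.64, and Aurka, Aurkb and Bub1b 0.01, 0.14 and -0.22. None of these differences reached 2 standard errors where it was tested. A second Cks1b probe set lay higher in all both than in all neither colonies (0.52), and a further Cdc20 probe set lower (-1.01). These probe sets were not tested. The Racgap1 probe set used was not tested, and its other, on chip B, went the opposite way in both against osteocalcin (-0.45, SE 0.58).

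Cdc26, a subunit of the anaphase-promoting complex, gave different pictures by probe set. The brightest of its 3 probe sets overlapped in every comparison, with 1145, 1260 and 1374 in both colonies, 1184, 2180 and 1128 in osteocalcin colonies and 1266, 1326 and 3076 in neither colonies. A second Cdc26 probe set had 1103, 973 and 1581 in both colonies, 486, 417 and 298 in osteocalcin colonies and 1161, 1516 and 2430 in neither colonies, so its osteocalcin colonies were below all others. It differed by 1.18 log2 units in both against osteocalcin (SE 0.37, limma adjusted p = 1) and by -1.56 in osteocalcin against neither (SE 0.37, limma adjusted p = 0.609). This gene falls outside the naming rule and was chosen after its values were seen. Of the 17 members with several probe sets, the 24 further probe sets had the sign of the one used in 14, 14 and 18 cases in the 3 comparisons and the opposite sign in 10, 10 and 6.

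A wider list of 144 other cell cycle genes, of which 127 were present, gave the context. None passed the limma adjusted p of 0.05 in any comparison. An unadjusted limma p under 0.05 was reached by 3, 12 and 10 of the 88 that were tested. Over all genes it was reached by 285, 756 and 906 of 9614 tested. The median differences over the 127 were 0.06, 0.03 and 0.12. Both II held the highest level of 30 of the 127 (23.6%), against 9.90% of all genes. Neither III held that of 27 (21.3%), against 25.4% of all genes. Fbxo5 (Emi1, an inhibitor of the anaphase-promoting complex) had 1688, 2054 and 1489 in both colonies, 403, 776 and 405 in osteocalcin colonies and 1525, 2176 and 227 in neither colonies, which separated both from osteocalcin (difference 1.29, SE 0.591, limma adjusted p = 1). Ckap2, a spindle protein, had its peak in both II, with 1362, 6555 and 234 in both colonies and 326, 207 and 271 in osteocalcin colonies (1.64, SE 0.811, limma adjusted p = 1). Anapc15, Gadd45g and Incenp had lower means in both colonies, by -1.48, -1.19 and -0.87, all with overlap.

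Against neither, Ttk (the spindle checkpoint kinase Mps1) had 317, 210 and 485 in both colonies, 392, 376 and 342 in osteocalcin colonies and 1368, 1504 and 2908 in neither colonies. Every neither colony was above the other 6, with differences of -1.62 for osteocalcin (SE 0.541, limma adjusted p = 0.61) and -1.71 for both (SE 0.541, limma adjusted p = 0.429). Anapc1 had 1074, 897 and 942 in both colonies, 387, 875 and 1076 in osteocalcin colonies and 2111, 1709 and 1927 in neither colonies. Cdkn2d, the INK4 inhibitor p19, had 4050, 3439 and 2804 in both colonies, 3790, 2588 and 2551 in osteocalcin colonies and 2325, 587 and 560 in neither colonies, below all others in the neither type (differences 1.33 for osteocalcin and 1.52 for both, SE 0.474, limma adjusted p = 0.611 and 0.428). Cdkn2a, the locus of p16 and Arf, had 2748, 5024 and 5717 in osteocalcin colonies and 1638, 528 and 2659 in neither colonies. Mcm10, which loads at replication origins, had 2368, 3524 and 4413 in both colonies, 5247, 1869 and 4641 in osteocalcin colonies and 492, 2781 and 749 in neither colonies, with neither II among the others. Tfdp1, the partner of E2F, and Anapc13 differed by 1.02 and -0.88 in both against neither.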

How the data were processed

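The values the authors deposited are linear intensities (signals) computed by MAS5, as the submitters' processing notes state, 1 value for each probe set and array. Neither a MAS5 version nor detection calls were used here. No genome build is named for the arrays. All 18 arrays were used, mapped through the titles, and 0 sample columns of the 2 tables were left unused. Each array was rescaled to a 2%-trimmed mean of 1500 and taken as log2(signal + pseudocount), the pseudocount being the median over arrays of the 25th percentile (238.7 on chip A, 336.2 on chip B). Of 15923 and 15333 probe sets, 57 controls on each chip were dropped, and probe sets above the array median on at least 3 of 9 arrays were tested (19312).

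Type means over the 9 arrays were fitted separately for the 2 chips (limma 3.58.1, R 4.3.3), with spreads moderated along the intensity trend and two-sided tests. Within a comparison, Benjamini-Hochberg adjustment ran over the p-values of the 2 chips joined. An exact permutation test of 3 colonies against 3 cannot give p under 0.1 and was not used. A gene was represented by its chip A probe set where it had one and otherwise by that on chip B, taking the highest mean signal. All genes means the 13810 genes with 1 annotated symbol, each read by 1 probe set. Prc1, Nusap1, Gmnn, Mki67, Top2a, Cdk1, Pcna, Ccnd1, Cdkn1a and the members whose types did not overlap were named for description. Adjusted p was given for Prc1, Nusap1, Gmnn and the members whose types did not overlap, where they were tested. Mcm7 was given likewise, beside Mcm6. Up to 5 other cell cycle genes with the smallest p were named per comparison. The members, lists and roles were chosen with earlier results of these data known, so the lists carry counts and medians and no p-value. Promoter windows come from RefSeq (GRCr8). All 71 member probe sets had a gene identifier that RefSeq lists under the same symbol. The fitting steps were tested on simulated data. The number of arrays limits the precision. Alternatives covered scaling, normalization, pseudocount, filter, probe set choice, array weights, the intensity trend, fluidics station, replicate numbers and each colony left out. Tables and figures were made in Python 3.11.15, plots with matplotlib 3.10.9.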

Additional observations from a re-analysis of the deposited data

How the results depend on the processing

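Member probe sets called numbered 0 under every alternative run, in all 3 comparisons. Over all probe sets, array weights called 87 in both against osteocalcin and 10 in both against neither, and no member was among them. The replicate block called 2 and signals as deposited called 1 in both against osteocalcin, and leaving out 1 colony called 0 to 3 in any comparison. Weak signal limits the dimmest genes: Mki67, Top2a, Mcm6 and Ccna2 were tested only without the filter.

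On the signals as deposited, with osteocalcin I not rescaled, the median over all genes moved to 0.52 in both against osteocalcin and to -0.61 in osteocalcin against neither. The medians over members, replication, G1/S and inhibitor genes were then 0.84, 0.87, 0.90 and 0.51 in both against osteocalcin, and -0.67, -0.67, -0.74 and -0.60 in osteocalcin against neither. Cdkn1a (0.64) and Tyms (0.04) changed sign in the first of these, and Pcna (-0.76), Cdkn1a (-1.20) and Cdk4 (-0.61) in the second; the unscaled array is the cause by construction.

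With the fluidics station as a block, the G1/S median was 0.56 in both against osteocalcin; in osteocalcin against neither the medians were -0.47 over members, -1.06 over replication, -1.51 over G1/S and -0.31 over inhibitor genes, and Pcna was -0.11; in both against neither the replication median was -0.47, and Prc1 (-0.10), Cdk1 (-0.76), Ccnd1 (-1.60) and Cdkn1a (0.10) changed sign. The cause was not tested, since stations and types are nearly confounded. On chip A the block rests on the both arrays, of which both III alone ran on station 2. On chip B it rests on the neither arrays, of which neither I alone ran on station 1. Without a pseudocount the inhibitor median in osteocalcin against neither was 0.49, and with a pseudocount of 16 it was 0.43. Array weights turned Pcna in both against osteocalcin (-0.02), and Cdk1 (0.05) and Cdkn1a (-0.08) in osteocalcin against neither; quantile normalization turned Cdkn1a there (-0.08).

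Leaving out 1 colony at a time, the G1/S median ranged from 0.01 to 0.64 in both against osteocalcin and from -0.66 to 0.26 in osteocalcin against neither. Signs also turned within these ranges: Pcna from -0.23 to 0.26 in both against osteocalcin; Cdkn1a from -0.07 to 0.75 in osteocalcin against neither; and Cdk1 from -0.40 to 0.61, Ccnd1 from -0.62 to 0.93 and Cdkn1a from -0.90 to 0.08 in both against neither. The median over members ranged from -0.02 to 0.35, from -0.29 to -0.04 and from -0.07 to 0.38 in the 3 comparisons, with its extreme near 0 in the first and below 0 in the third when both II was left out.

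The numbers I to III do not pair the colonies by the labels, and deviations of same-numbered colonies correlated over 0.1 in 9 of 18 pairs. With them as a replicate block, members called stayed at 0 and the medians over members stayed at 0.20, -0.16 and 0.15. A block for the hybridization day was not run. Only 1 chip A array, that of osteocalcin I, was hybridized on another day, and all chip B arrays on the same one. By hybridization run, neither II and neither III also stood apart on chip A, and the osteocalcin arrays on chip B.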
